A study of Mus musculus with 12 samples.

Results

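The Wnt ligands, their Frizzled receptors and their secreted regulators were followed in stromal vascular cells of mouse fat, the mixed population that remains once mature adipocytes are removed. The members were taken by gene symbol: the numbered Wnt, Fzd, Sfrp, Dkk and Rspo genes, with Wif1, Frzb, Axin2 and Lgr4, Lgr5 and Lgr6. The rule found 47 members among 24422 counted features, and no measured value entered it. They comprise 19 Wnt ligands, 10 Frizzled receptors, 6 Wnt-binding antagonists (4 Sfrp genes, Frzb and Wif1), 4 Dkk genes, 4 R-spondins, 3 Lgr receptors and Axin2.

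Poly-A RNA-seq was made from 12 libraries in 4 groups of 3. SD mCherry (replicates 1, 2 and 3) are p21+/mcherry mice on a standard diet, and HFD mCherry (replicates 15, 17 and 20) are p21+/mcherry mice on a high-fat diet. HFD Tert (replicates 25, 26 and 27) are p21+/mcherry-Tert mice and HFD TertCi (replicates 30, 31 and 33) are p21+/mcherry-TertCi mice, both on the high-fat diet. Tert is the catalytic subunit of telomerase and TertCi its catalytically inactive form. Every group, controls included, carries 1 modified p21 (Cdkn1a) allele, so no group has both p21 alleles unmodified, and the cassettes are expressed only where the p21 promoter is active. The labels name the cells as primary stromal cells of adipose tissue and give no sex, age, fat depot or length of diet. The labels do not say that the 3 libraries of a group came from separate mice, so p-values measure the spread between these samples, which may be technical.

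Wnt proteins bind a Frizzled receptor together with Lrp5 or Lrp6, and in the canonical branch this stabilises beta-catenin, which enters the nucleus and works with TCF and LEF factors on target genes such as Axin2. Sfrp proteins, Frzb and Wif1 bind Wnt outside the cell, Dkk1 and Dkk2 act on Lrp5 and Lrp6, and R-spondins bound to Lgr4, Lgr5 or Lgr6 keep Frizzled receptors from being removed from the membrane. In adipose tissue canonical Wnt signals such as Wnt10b hold precursor cells back from becoming adipocytes, and Wnt5a with its antagonist Sfrp5 has been studied in obesity-related inflammation.

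Total counts ran from 16430330 to 19486965 per library, and 16231 to 19147 features had at least 1 count. Values are CPM, the standard depth-scaled count on TMM-scaled library sizes, and 3 counts correspond to 0.145 to 0.193 CPM. Adipose progenitor markers were present at high level in every library, with 10 of 10 tested and a mean log2 CPM between 7.05 and 9.32. The adipocyte list (6 of 6 tested) had a mean log2 CPM between 1.96 and 4.23, with Adipoq at most 7.85 CPM but Fabp4, which other stromal cells also express, at 207 to 6132 CPM. Crisp1, a secreted protein of the epididymis, was at 641 CPM or more in 8 libraries and at 0.529 CPM or less in the other 4, which are 1 in each group: HFD TertCi 31, HFD Tert 27, HFD mCherry 20 and SD mCherry 2. Bulk counts cannot tell fewer cells of a type from less RNA per cell.

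The promoters of 4 members are shown because their genes carry the results: Fzd1 had its highest group mean in HFD mCherry, Wnt5b and Dkk2 had their lowest there, and Axin2 is the standard Wnt target gene. RefSeq start sites on GRCm38.p6 were matched for 32 of the 47 members, in 35 windows of 250 bases before the start. The letters CTTTGAT and CTTTGAA and CTTTGTT and CTTTGTA, forms of the TCF/LEF motif, were searched on both strands, and no 2 forms can match at the same place. They occurred in 4 of 35 member windows (11.4%), of Wnt11, Wnt5b, Fzd7 and Dkk1, and in 4874 of 32851 windows of all promoters (14.8%). The CArG box, the motif of serum response factor in smooth muscle genes, occurred in 1 member window (2.86%), of Lgr4, and in 1.47% of all windows. A match is a description of the letters only. The windows are Fzd1 at chr5:4758217-4758466 on the minus strand, Axin2 at chr11:108920099-108920348 on the plus strand, Dkk2 at chr3:132085042-132085291 on the plus strand and 1 of 3 Wnt5b windows, at chr6:119449387-119449636 on the minus strand. Capitals mark the TCF/LEF letters, which among these 4 windows are in that of Wnt5b. Of the 3 Wnt5b windows only 1 holds these letters, and that one is shown.
Fzd1: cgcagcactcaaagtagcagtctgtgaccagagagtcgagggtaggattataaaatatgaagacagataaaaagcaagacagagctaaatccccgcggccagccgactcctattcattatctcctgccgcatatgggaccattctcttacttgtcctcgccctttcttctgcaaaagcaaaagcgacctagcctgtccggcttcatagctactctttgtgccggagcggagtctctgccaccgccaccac
Axin2: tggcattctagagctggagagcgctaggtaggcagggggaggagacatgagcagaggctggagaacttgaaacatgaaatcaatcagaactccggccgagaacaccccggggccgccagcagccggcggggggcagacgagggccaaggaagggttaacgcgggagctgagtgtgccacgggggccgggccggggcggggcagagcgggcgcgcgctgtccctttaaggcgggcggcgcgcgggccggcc
Dkk2: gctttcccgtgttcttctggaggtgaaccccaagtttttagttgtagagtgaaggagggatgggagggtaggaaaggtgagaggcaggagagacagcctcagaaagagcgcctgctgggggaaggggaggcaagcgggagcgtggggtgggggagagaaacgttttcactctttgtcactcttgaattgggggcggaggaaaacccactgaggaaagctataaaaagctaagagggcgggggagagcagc
Wnt5b: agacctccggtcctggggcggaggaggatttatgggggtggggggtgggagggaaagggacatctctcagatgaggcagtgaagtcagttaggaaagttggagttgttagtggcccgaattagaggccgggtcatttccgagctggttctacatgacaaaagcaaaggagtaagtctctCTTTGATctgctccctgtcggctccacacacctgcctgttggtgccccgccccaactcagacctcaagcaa

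Antagonists and receptors, more than ligands, were the members with the highest level. Levels were compared between genes as CPM per kilobase of exon, averaged over the 12 libraries, with GENCODE M21 exon lengths. Sfrp2, a Wnt-binding antagonist of stromal cells, was highest at 63.1 CPM per kb, ahead of Sfrp1 at 25.8 and the R-spondin Rspo1 at 23.5. The highest receptor was Fzd1 at 17.9 CPM per kb, then Fzd6 at 14.2 and Fzd7 at 10.3. Among ligands, Wnt11 at 5.85 CPM per kb, Wnt4 at 4.43 and Wnt6 at 4.40 led. The remaining roles were led by Dkk3 at 13.5 CPM per kb, Lgr4 at 5.49 and Axin2 at 2.34. Of the 47 members, 37 passed the filter on low counts and 34 had a mean of at least 1 CPM. The 10 that did not pass were Wnt1, Wnt3, Wnt3a, Wnt7a, Wnt8a, Wnt8b, Wnt16, Dkk1, Dkk4 and Rspo4, none above 0.875 CPM in any library. Dkk4 and Wnt8a had 0 counts in all 12. Axin2, Fzd5, Fzd6, Rspo3, Sfrp2, Wnt5a, Wnt7b, Wnt11 and the pathway genes Notum, Ctnnb1, Lef1 and Tnks overlap exons of a gene on the other strand in GENCODE M21. How the counting used strand is not given in the sources used here, so their reads could include reads of that neighbour.

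**Figure D1:**
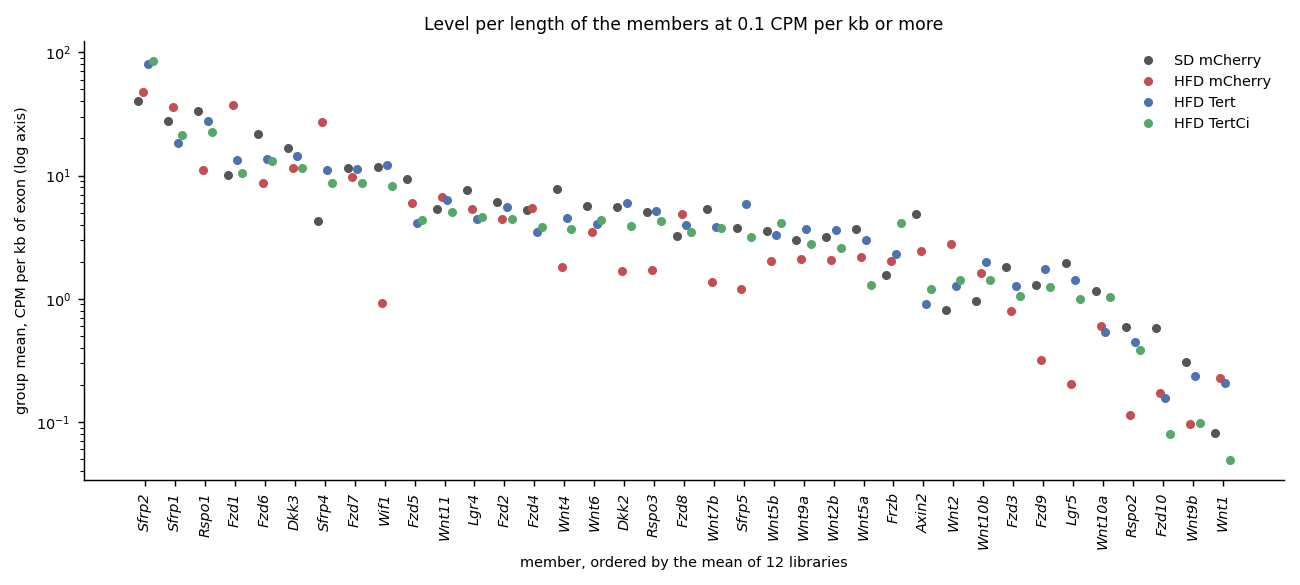
Group mean level in CPM per kb of exon (log axis) of the 37 members at 0.1 CPM per kb or more, ordered by the mean of 12 libraries, with 1 point per group of 3 libraries. Sfrp2 stands first at 63.1 CPM per kb, and the HFD mCherry points of Fzd1 and Sfrp4 lie above those of the other 3 groups.

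The members also differed in how evenly they were spread over the libraries. Wnt11, which acts largely through beta-catenin-independent routes, had group means of 22.0, 27.7, 26.2 and 20.98 CPM in SD mCherry, then HFD mCherry, then HFD Tert and last HFD TertCi. Dkk3, a secreted member of the Dkk family, had group means of 56.3, 38.7, 47.9 and 38.6 CPM, and Lgr4 had libraries between 17.9 and 53.2 CPM. In each of these 3 genes the groups overlapped in all 4 comparisons made. The same was true of Wnt6 (3.05 to 16.7 CPM over the 12 libraries), Fzd2 (11.6 to 28.2), Fzd3 (3.82 to 30.01), Fzd4 (17.3 to 50.1), Fzd5 (16.1 to 90.4), Fzd7 (20.2 to 84.2) and Fzd10 (0 to 2.81). Frzb, a Wnt-binding antagonist first known from cartilage, ran from 2.49 to 23.4 CPM, highest in HFD TertCi 31, and Lgr6 was at most 0.916 CPM. Wif1, by contrast, ran from 0 counts in 3 libraries to 71.0 CPM within the same groups, and is described after the group comparisons. It lies at chr10:121033960-121100650.

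High-fat diet was compared with standard diet in p21+/mcherry mice. No member was called changed by edgeR at an adjusted p under 0.05, against 8 of 16713 genes (0.0479%). The lowest adjusted p among members was 0.0659, for Fzd1. At an unadjusted p under 0.05, 4 members were higher and 8 lower in HFD mCherry, against 14.1% of all genes higher and 10% lower (24.1% in either direction). The libraries of the groups did not overlap for 4 members that were higher and 5 that were lower, 24.3% of the 37, against 25.5% of all genes (13.9% higher and 11.6% lower). The members' median log2 fold change was -0.75, with 27 of 37 below 0, and that of all genes was -0.08. DESeq2 called 6 members, Fzd1, Sfrp4, Wnt2, Fzd6, Wnt4 and Dkk2, where it called 12.4% of all genes, and limma-voom called 0. Without HFD mCherry replicate 15 edgeR called 8 members, Fzd1, Sfrp4, Wnt2, Wnt4, Wnt6, Fzd3, Fzd6 and Axin2, where it called 12.2% of all genes. Without HFD Tert replicate 27 it called 2 of 39 members and 4% of all genes.

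Fzd1, a receptor of canonical Wnt signalling, measured 49.8, 43.0 and 33.9 CPM in SD mCherry replicates 1, 2 and 3. In HFD mCherry replicates 15, 17 and 20 it measured 62.3, 196 and 215 CPM. Every high-fat library was above every standard diet library, but replicate 15 stood closer to the standard diet than to replicates 17 and 20. Its log2 fold change was 1.90 ± 0.39 (SE, n = 3 against 3), a 3.73-fold higher level, with an edgeR adjusted p = 0.0659. Over 23 alternatives its adjusted p ran from 0.000278 to 0.261. The gene lies at chr5:4753839-4758035 on GRCm38.

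Sfrp4, a Wnt-binding antagonist that adipose tissue secretes, at chr13:19623104-19632994 on GRCm38, measured 15.1, 29.5 and 8.92 CPM on the standard diet. On the high-fat diet it measured 51.1, 140 and 148 CPM in replicates 15, 17 and 20, again with no overlap and with replicate 15 lowest. This gave a log2 fold change of 2.66 ± 0.62 (SE, n = 3 against 3), with an edgeR adjusted p = 0.0727. Wnt2, a canonical ligand, measured 1.22, 2.52 and 1.80 CPM on the standard diet and 3.15, 8.30 and 7.35 CPM on the high-fat diet. Its libraries did not overlap either, and replicate 15 was again the lowest of the high-fat group (log2 fold change 1.76 ± 0.52, edgeR adjusted p = 0.0968). Fzd8, another Frizzled receptor, measured 24.998, 18.9 and 14.0 CPM on the standard diet and 29.2, 29.5 and 29.1 CPM on the high-fat diet. The 3 high-fat libraries of Fzd8 lay close together and above all others (log2 fold change 0.60 ± 0.23, edgeR adjusted p = 0.156).

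Mean levels of the adipose progenitor, macrophage and endothelial marker lists were also higher in HFD mCherry than in SD mCherry, as these 4 genes were. Those of the other lists were lower in HFD mCherry. Their group means in log2 CPM were 5.11 against 5.74 (mesothelial) and 7.41 against 8.095 (pericyte and smooth muscle). They were 2.61 against 2.84 (adipocyte) and 4.21 against 6.43 (epididymis and epithelium). Within HFD mCherry, Fzd1, Sfrp4 and Wnt2 were lowest in replicate 15, while Fzd8 was nearly equal in the libraries. The mean log2 CPM of the adipose progenitor list (10 of 10 genes) was 7.05 to 8.03 in SD mCherry and 8.16 to 9.32 in HFD mCherry. Within HFD mCherry it was 8.16 in replicate 15 and 9.32 and 9.30 in replicates 17 and 20. That of the macrophage list (6 of 6 genes) was 5.26 to 6.24 in SD mCherry and 7.30 to 8.70 in HFD mCherry, again lowest in replicate 15. That of the endothelial list (6 of 6 genes) was 6.34 to 6.92 and 7.13 to 7.96, also lowest in replicate 15. Not every gene went with its list. Dpp4 and F3 of the progenitor list had lower means in HFD mCherry (66.1 and 251 CPM) than in SD mCherry (86.2 and 381 CPM). So did Emcn of the endothelial list (51.3 against 55.7 CPM), and Kdr differed little (77.0 against 69.8 CPM). The other genes of the progenitor, macrophage and endothelial lists had higher means in HFD mCherry. No marker of those lists was at 0 in any library. The part of the marker lists in the result was not tested.

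Among the ligands that were lower on the high-fat diet, Wnt4 measured 24.6, 42.2 and 30.1 CPM in SD mCherry and 15.6, 3.37 and 3.88 CPM in HFD mCherry. All 3 high-fat libraries were lower, and replicate 15 was the highest of them (log2 fold change -2.08 ± 0.73, edgeR adjusted p = 0.136). Without that replicate the log2 fold change of Wnt4 was -3.15, with an adjusted p = 0.0263. Wnt5b, a ligand of the beta-catenin-independent branch, measured 10.2, 9.70 and 8.40 CPM in SD mCherry and 5.52, 5.65 and 5.08 CPM in HFD mCherry. Both groups were tight and did not overlap, with a log2 fold change of -0.80 ± 0.31 and an edgeR adjusted p = 0.164. Wnt9a measured 10.8, 7.66 and 11.2 CPM in SD mCherry and 7.18, 7.10 and 6.63 CPM in HFD mCherry. These groups did not overlap, with a log2 fold change of -0.51 ± 0.34 and an edgeR adjusted p = 0.366.

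Dkk2, which binds the Lrp co-receptors, measured 12.5, 10.4 and 38.8 CPM in SD mCherry and 5.52, 8.06 and 5.26 CPM in HFD mCherry. Its groups did not overlap, and SD mCherry replicate 3 was far above the other 2. The log2 fold change was -1.71 ± 0.57 (edgeR adjusted p = 0.123) and -0.87 without that replicate. Fzd9, a low-level receptor, measured 1.48, 1.79 and 5.68 CPM in SD mCherry and 0.0552, 0.902 and 1.25 CPM in HFD mCherry. The lowest of these is 1 count, under the 3-count limit, and the groups did not overlap (log2 fold change -2.01 ± 0.90, edgeR adjusted p = 0.204). Without SD mCherry replicate 3 the log2 fold change of Fzd9 was -1.15, and without HFD mCherry replicate 20 it was -2.63.

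Sfrp5, the antagonist of Wnt5a, measured 7.28, 3.01 and 10.9 CPM in SD mCherry and 1.602, 3.25 and 2.03 CPM in HFD mCherry. These groups overlapped, since SD mCherry replicate 2 lay among the high-fat libraries (log2 fold change -1.62, edgeR adjusted p = 0.164). Rspo1, the R-spondin with the highest level, measured 69.0, 108 and 16.2 CPM in SD mCherry and 21.7, 20.1 and 22.0 CPM in HFD mCherry. Here SD mCherry replicate 3 lay below all 3 high-fat libraries (log2 fold change -1.59 ± 0.59, edgeR adjusted p = 0.152, and -1.001 without replicate 2). The mean log2 CPM of the mesothelial list (6 of 6 genes) was 5.66, 6.96 and 4.60 in the same SD mCherry replicates, in the order of Rspo1, and 5.05 to 5.16 in HFD mCherry. Wt1 of that list had a higher mean in HFD mCherry (98.6 CPM) than in SD mCherry (34.1 CPM), and its other genes had lower means. The part of this list in the result was not tested. Fzd6, named here after its values were seen, measured 109, 151 and 52.4 CPM in SD mCherry and 63.4, 29.2 and 32.1 CPM in HFD mCherry. Its groups overlapped (log2 fold change -1.33 ± 0.40, edgeR adjusted p = 0.102).

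Axin2, a feedback inhibitor of the pathway and its usual transcriptional readout, at chr11:108920349-108950783, measured 33.04, 33.9 and 12.8 CPM in SD mCherry and 29.4, 3.85 and 6.93 CPM in HFD mCherry. It was between 4.18 and 10.2 CPM in the 6 Tert and TertCi libraries. The level was thus high in 3 libraries, SD mCherry 1 and 2 and HFD mCherry 15, and the diet groups overlapped (log2 fold change -0.99 ± 0.68, edgeR adjusted p = 0.376). Without HFD mCherry replicate 15 the log2 fold change was -2.30, with an adjusted p = 0.0283. In that replicate Tcf7 and Lef1, nuclear partners of beta-catenin that T cells also express, measured 81.8 and 26.1 CPM, and the epididymis and epithelium list stood at a mean log2 CPM of 9.06, against 2.83 and 0.74 in HFD mCherry 17 and 20. In the other 11 libraries, which include SD mCherry 1 and 2 with their high Axin2, Tcf7 was at most 32.4 CPM and Lef1 at most 13.1 CPM. The epididymis and epithelium list stood at 7.86, 2.90 and 8.54 in SD mCherry 1, 2 and 3, not in the order of Axin2. Its genes diverged, since Epcam (344, 543 and 331 CPM) and Cdh1 (227, 381 and 193 CPM) did follow the order of Axin2 there. The other tested genes of the list were highest in SD mCherry 3. Axin2, Tcf7 and Lef1 were set side by side after their values were seen, and the part of these markers in the result was not tested.

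**Figure D2:**
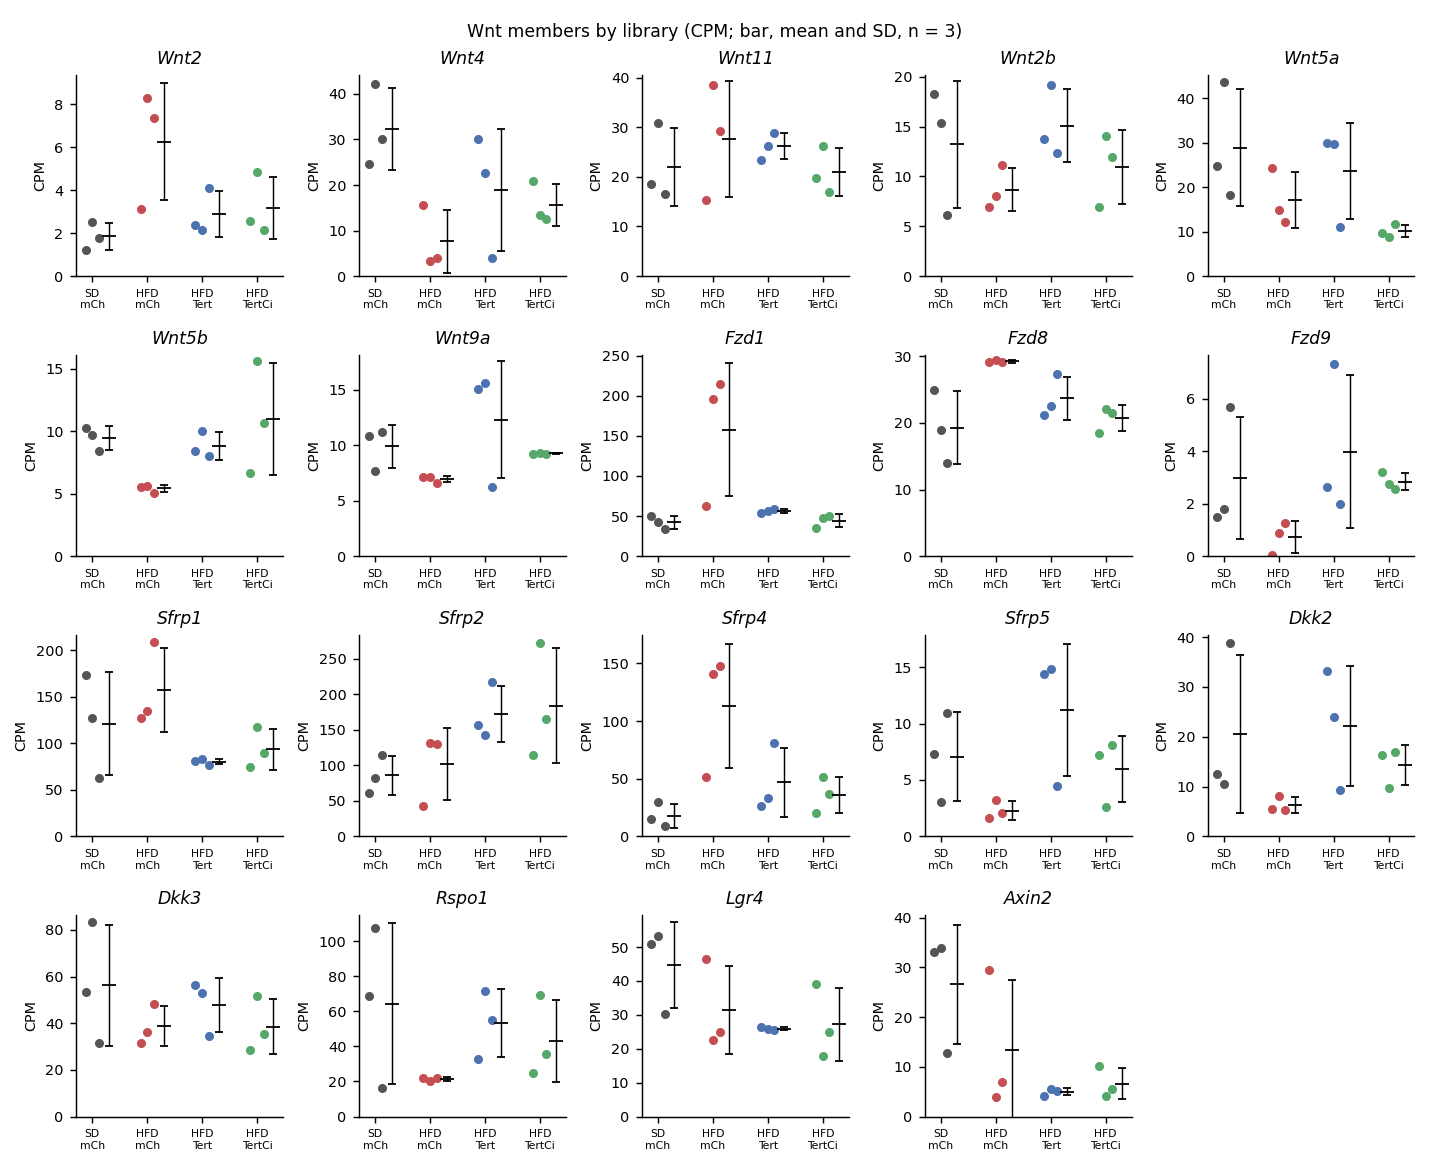
CPM of 19 members in each of the 12 libraries (points, by group) with the mean and SD of each group (bars, n = 3), where the lower bar of Axin2 in HFD mCherry is cut at 0. Fzd1, Sfrp4, Wnt2 and Fzd8 are highest in HFD mCherry, and Wnt5b, Dkk2 and Rspo1 have their 3 HFD mCherry libraries close together at a low level.

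The comparisons of HFD Tert and of HFD TertCi with HFD mCherry ask what p21-driven telomerase, active or inactive, does on the same diet. They share the HFD mCherry libraries with each other and with the diet comparison, so their values are given side by side and do not support each other. In HFD Tert, edgeR called no member and none of the 16713 genes (0%). At an unadjusted p under 0.05, 7 members were higher and 2 lower than in HFD mCherry, against 6.62% and 9.75% of all genes (16.4% in either direction). The libraries did not overlap for 7 members that were higher and 3 that were lower, 27% of the 37, against 21.1% of all genes (9.99% higher and 11.1% lower). The median log2 fold change was 0.46 over the members and -0.05 over all genes. DESeq2 called 3 members, Fzd1, Sfrp5 and Dkk2, and 5.08% of all genes, and limma-voom called 0. Without HFD mCherry replicate 15 edgeR called Fzd1, and 0.299% of all genes.

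In HFD TertCi, edgeR called no member and 2 genes in all (0.012%). At an unadjusted p under 0.05, 2 members were higher and 3 lower, against 5.76% and 8.92% of all genes (14.7% in either direction). The libraries did not overlap for 5 members that were higher and 4 that were lower, 24.3% of the 37, against 21.5% of all genes (9.45% higher and 12% lower). The median log2 fold change was 0.33 over the members and -0.04 over all genes. DESeq2 called Fzd1 and Wnt5b, and 4.09% of all genes, and limma-voom called 0. Without HFD mCherry replicate 15 edgeR called Fzd1, and 1.16% of all genes.

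Fzd1 measured 54.2, 56.5 and 58.5 CPM in HFD Tert and 35.3, 47.8 and 50.02 CPM in HFD TertCi. All 6 libraries were below the 62.3, 196 and 215 CPM of HFD mCherry, narrowly so against replicate 15. In HFD Tert the log2 fold change was -1.48 ± 0.38, with an edgeR adjusted p = 0.187. In HFD TertCi it was -1.83 ± 0.39, with an edgeR adjusted p = 0.154. Without replicate 15 these became -1.86 (adjusted p = 0.0266) and -2.21 (adjusted p = 0.0114). The progenitor level was 7.84 to 8.59 in HFD Tert and 7.62 to 8.38 in HFD TertCi, overlapping HFD mCherry only at its replicate 15. Of that list, Icam1 (means 2499 and 2952 against 2309 CPM) and Dpp4 (69.5 and 74.7 against 66.1 CPM) were higher in both groups. The list's other genes had lower means in both. The endothelial level went the other way, with means of 8.09 in HFD Tert and 8.10 in HFD TertCi against 7.63 in HFD mCherry. Its libraries overlapped between these groups. The macrophage level was 5.20 to 7.38 in HFD Tert, where replicate 27 overlapped the 7.30 to 8.70 of HFD mCherry. It was 5.71 to 6.74 in HFD TertCi, below HFD mCherry. The part of these markers in the result was not tested.

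Sfrp4 measured 26.1, 33.5 and 80.6 CPM in HFD Tert and 20.3, 51.7 and 36.6 CPM in HFD TertCi. Both groups overlapped HFD mCherry, by HFD Tert 27 and HFD TertCi 31. The log2 fold change was -1.27 in HFD Tert (edgeR adjusted p = 0.316) and -1.64 ± 0.60 in HFD TertCi (edgeR adjusted p = 0.262). Sfrp1 measured 128, 134 and 209 CPM in HFD mCherry, 81.5, 82.6 and 76.9 CPM in HFD Tert and 74.0, 118 and 89.3 CPM in HFD TertCi. Neither group overlapped HFD mCherry (log2 fold changes -0.97 ± 0.34 and -0.75 ± 0.34, edgeR adjusted p = 0.233 and 0.347). Fzd8 measured 21.1, 22.5 and 27.4 CPM in HFD Tert and 18.5, 22.1 and 21.5 CPM in HFD TertCi. It too lay below HFD mCherry without overlap, with edgeR adjusted p = 0.508 and 0.339.

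Higher than in HFD mCherry in both groups was Wnt5b, at 8.40, 10.04 and 7.99 CPM in HFD Tert and 6.68, 15.6 and 10.6 CPM in HFD TertCi. None of the 6 libraries reached down to the 5.08 to 5.65 CPM of HFD mCherry. Its log2 fold change was 0.70 ± 0.31 in HFD Tert (edgeR adjusted p = 0.297) and 1.02 ± 0.31 in HFD TertCi (edgeR adjusted p = 0.219). Dkk2 measured 33.1, 23.9 and 9.23 CPM in HFD Tert and 16.3, 9.72 and 16.9 CPM in HFD TertCi. All were above the highest HFD mCherry library at 8.06 CPM, HFD Tert 27 and HFD TertCi 31 least so. For Dkk2 the log2 fold changes were 1.81 ± 0.57 (edgeR adjusted p = 0.217) and 1.19 ± 0.56 (edgeR adjusted p = 0.361).

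Rspo1 measured 32.97, 71.8 and 55.1 CPM in HFD Tert and 24.7, 69.6 and 35.7 CPM in HFD TertCi, all above the 22.0 CPM of the highest HFD mCherry library. The log2 fold change was 1.32 ± 0.59 in HFD Tert (edgeR adjusted p = 0.298) and 1.02 in HFD TertCi (edgeR adjusted p = 0.438). The mesothelial level was 6.32 to 7.67 in HFD Tert and 5.84 to 6.77 in HFD TertCi, both above the 5.05 to 5.16 of HFD mCherry. Wt1 of that list went the other way, with means of 64.0 and 56.7 CPM against 98.6 CPM in HFD mCherry. The other genes of the list had higher means in both groups, though Krt19 overlapped HFD mCherry in each. In each of the 2 groups replicate 26 or 31 was the highest library for Rspo1 and for that list. The part of these markers in the result was not tested. Fzd9 measured 2.63, 7.31 and 1.998 CPM in HFD Tert and 3.21, 2.77 and 2.56 CPM in HFD TertCi, above all HFD mCherry libraries (log2 fold changes 2.43 and 1.94, edgeR adjusted p = 0.244 and 0.348). Without HFD mCherry replicate 20 these were 3.05 and 2.56, and without HFD Tert replicate 26 the former was 1.65.

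Sfrp5 measured 14.4, 14.8 and 4.47 CPM in HFD Tert, above the 1.602 to 3.25 CPM of HFD mCherry. The log2 fold change was 2.29 ± 0.64, with an edgeR adjusted p = 0.195. In HFD TertCi it measured 7.19, 2.64 and 8.12 CPM, and replicate 31 overlapped HFD mCherry (log2 fold change 1.38, edgeR adjusted p = 0.34). Sfrp2 measured 157, 142 and 217 CPM in HFD Tert against 43.0, 131 and 130 CPM in HFD mCherry, with no overlap (log2 fold change 0.76 ± 0.45, edgeR adjusted p = 0.409). In HFD TertCi it measured 114, 272 and 165 CPM and overlapped HFD mCherry. Wnt2b measured 13.7, 19.2 and 12.4 CPM in HFD Tert against 6.96, 7.997 and 11.1 CPM in HFD mCherry (log2 fold change 0.80 ± 0.42, edgeR adjusted p = 0.365). Its HFD TertCi libraries, at 6.89, 14.0 and 11.9 CPM, overlapped HFD mCherry. Wnt9a was at 9.23, 9.34 and 9.22 CPM in HFD TertCi, above the 6.63 to 7.18 CPM of HFD mCherry (log2 fold change 0.41, edgeR adjusted p = 0.591). In HFD Tert its replicate 27, at 6.23 CPM, lay below HFD mCherry while the other 2 stood at 15.1 and 15.6 CPM.

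**Figure D3:**
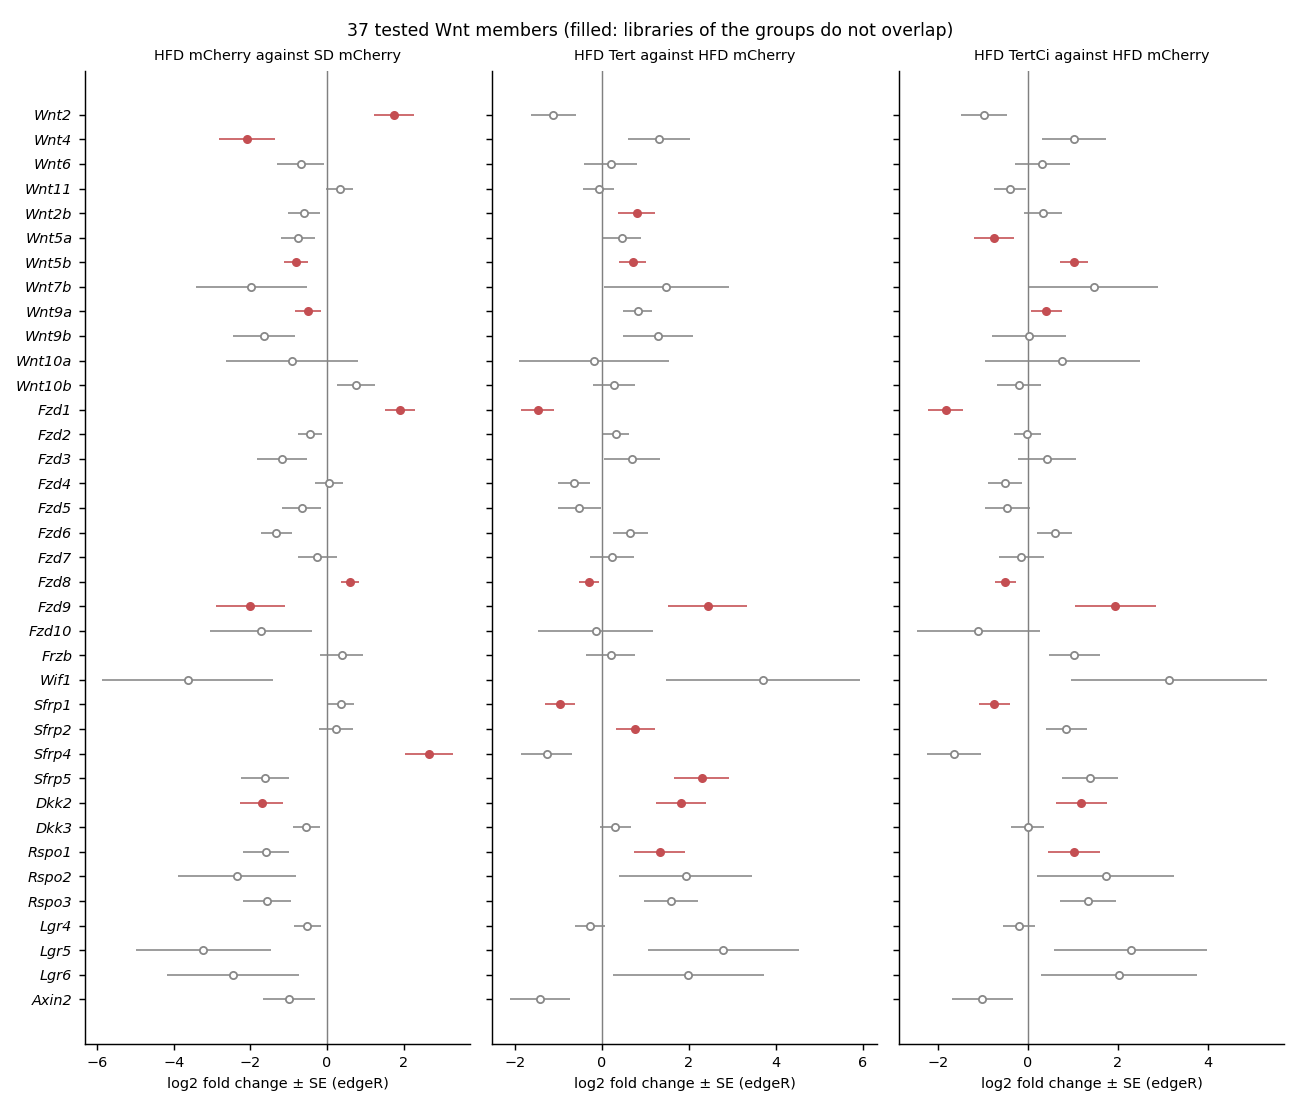
Log2 fold change with its SE (edgeR, 3 libraries against 3) of the 37 tested members in 3 comparisons that share the HFD mCherry libraries. Filled points mark members whose libraries did not overlap, 9 for diet, 10 for HFD Tert and 9 for HFD TertCi, and no member passed the adjusted threshold.

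HFD Tert and HFD TertCi differ in the catalytic activity of the protein that the p21 promoter drives. No member and none of the 16713 genes were called by edgeR (0%), and DESeq2 and limma-voom called no member. At an unadjusted p under 0.05, 1 member was higher and 0 lower in HFD Tert, against 0.766% and 0.592% of all genes (1.36% in either direction). The libraries did not overlap for 2 members, both higher in HFD Tert (5.41% of the 37), against 5.13% of all genes (2.55% higher and 2.58% lower). The member at an unadjusted p under 0.05 was Wnt5a, at 29.996, 29.7 and 11.05 CPM in HFD Tert and 9.79, 8.88 and 11.6 CPM in HFD TertCi. HFD Tert 27 lay within the TertCi range while the other 2 libraries were above it. The log2 fold change was 1.22 ± 0.44, with an unadjusted p = 0.0188 and an edgeR adjusted p = 1. Against HFD mCherry, at 24.2, 14.9 and 12.1 CPM, Wnt5a was lower in HFD TertCi with no overlap (log2 fold change -0.76 ± 0.44, edgeR adjusted p = 0.444). The 2 members without overlap were Fzd1, whose lowest HFD Tert library was 54.2 CPM and whose highest HFD TertCi library was 50.02 CPM, and Wnt9b, at most 1.35 CPM in both groups.

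A test over all 4 groups at once called no member and 2 of 16713 genes (0.012%). Its lowest adjusted p among members was 0.122, and 9 of 37 members had an unadjusted p under 0.05, against 20.2% of all genes. DESeq2's test over the groups called 4 members, Fzd1, Sfrp4, Sfrp5 and Axin2, and 13.8% of all genes. Without SD mCherry replicate 3 edgeR called 1 member, Fzd5, and 3% of all genes, and without HFD mCherry replicate 15 it called 2 members and 3.81% of all genes.

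Several members split the libraries within SD mCherry, HFD Tert and HFD TertCi, with all HFD mCherry libraries on the low side. The split is therefore not independent of group. Dkk2 and Sfrp5, among these members, also separated HFD Tert from HFD mCherry without overlap. The gap that separates the libraries most in mean log2 CPM of the pericyte and smooth muscle list (6 of 6 genes) lies between 7.77 and 8.36. It leaves 6 libraries at 8.36 to 9.15, SD mCherry 1 and 3, HFD Tert 25 and 26 and HFD TertCi 30 and 33. The other 6, at 7.19 to 7.77, hold all 3 HFD mCherry libraries. Of the list's genes, Acta2 (169 to 3826 CPM), Myh11 (194 to 5016 CPM) and Des (130 to 3865 CPM), genes of the contractile apparatus, separated the same libraries without overlap. Cspg4, Rgs5 and Notch3, which mark pericytes, did not. Rgs5 and Notch3 were higher in HFD mCherry, with means of 176 and 159 CPM, than in SD mCherry, with means of 81.8 and 51.4 CPM. Of the 37 members, 6 (16.2%) were higher in the first 6 libraries with no overlap, and 0 were lower. Over all genes 3.84% were higher and 1.26% lower. The split and the 6 members were chosen after the values were seen, so these figures are a description with no test.

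The 6 members were 2 Wnt-binding antagonists, Wif1 and Sfrp5, the co-receptor ligand Dkk2, 2 R-spondins, Rspo2 and Rspo3, and the R-spondin receptor Lgr5. Wif1 measured 11.05, 2.57 and 71.0 CPM in SD mCherry, 1.44, 5.35 and 0 CPM in HFD mCherry, 47.8, 40.1 and 0 CPM in HFD Tert and 35.4, 0 and 24.2 CPM in HFD TertCi. The 3 zeros are libraries with no Wif1 count, HFD mCherry 20, HFD Tert 27 and HFD TertCi 31, which allows a level of up to 0.193 CPM. Lgr5 measured 15.6, 1.55 and 42.5 CPM in SD mCherry, 2.49, 3.07 and 0.776 CPM in HFD mCherry, 24.2, 19.8 and 0 CPM in HFD Tert and 18.5, 0.322 and 12.03 CPM in HFD TertCi. The same replicates, SD mCherry 2, HFD Tert 27 and HFD TertCi 31, stood apart from their groups in both genes. Rspo3, an R-spondin that vascular cells express, measured 16.6, 6.11 and 23.9 CPM in SD mCherry and 8.67, 4.33 and 2.81 CPM in HFD mCherry. In HFD Tert it measured 20.3, 20.7 and 6.82 CPM and in HFD TertCi 18.1, 7.53 and 14.3 CPM. Its fold changes had SEs of 0.62, against 2.23 for Wif1 in the diet comparison, where neither gene was called (log2 fold changes -1.56 and -3.64, edgeR adjusted p = 0.171 and 0.327).

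Between the 6 libraries with high and the 6 with low smooth muscle level, the median of Wif1 was 37.8 against 0.718 CPM and that of Lgr5 was 19.1 against 1.16 CPM. The medians of Rspo3 were 19.2 and 6.46 CPM, of Dkk2 20.4 and 8.64 CPM, of Sfrp5 9.53 and 2.82 CPM and of Rspo2 3.44 and 0.500 CPM. The 4 libraries with Crisp1 near 0 all belong to the low set, and 1 member, Lgr5, separated them from the other 8 without overlap (2.7% of the members, 2.05% of all genes). The epididymis and epithelium list (8 of 10 genes tested) had a mean log2 CPM of 2.83 to 9.06 where Crisp1 was present and -1.85 to 2.90 where it was near 0. These mean levels moved with the 6 members within SD mCherry, HFD Tert and HFD TertCi, but not every gene of the list did. In SD mCherry, Epcam and Cdh1 were highest in replicate 2 (543 and 381 CPM), where the list's other tested genes were lowest. In HFD TertCi, Adam7 was lowest in replicate 33 (6.12 CPM). The part of these levels in the result was not tested.

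**Figure D4:**
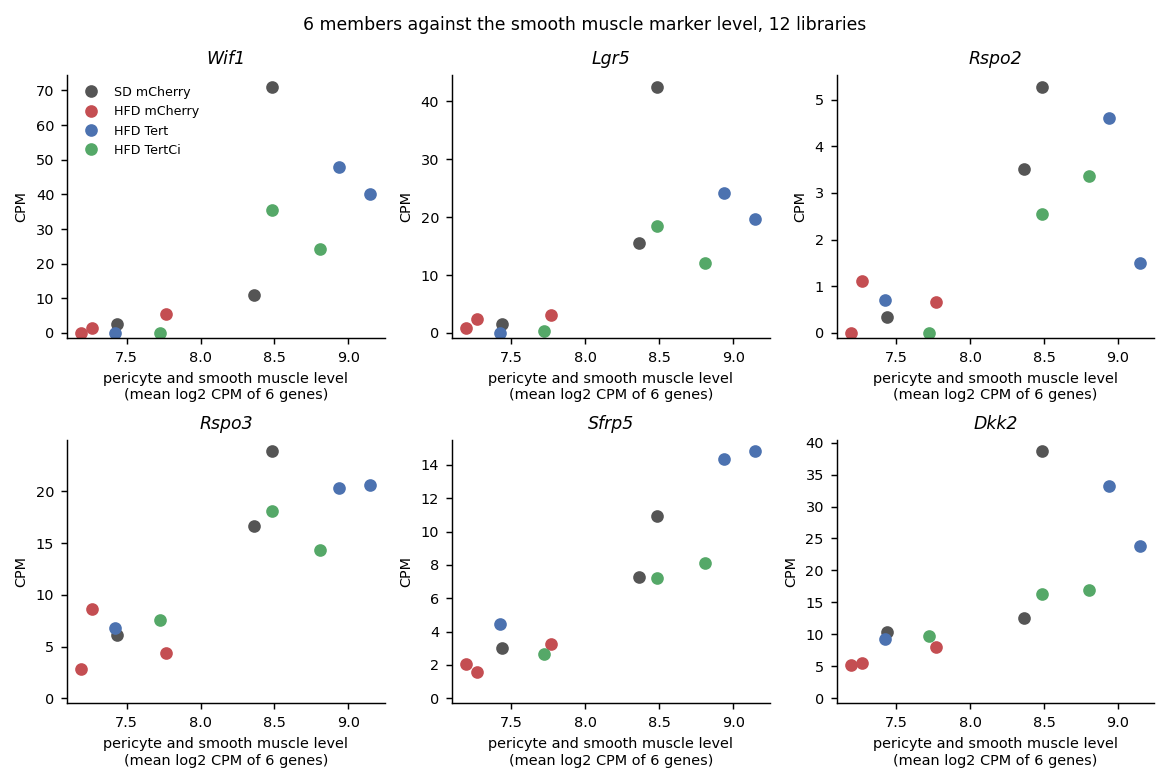
CPM of Wif1, Lgr5, Rspo2, Rspo3, Sfrp5 and Dkk2 in the 12 libraries (points, coloured by group) against the mean log2 CPM of 6 pericyte and smooth muscle genes. The 6 libraries from 8.36 upward are above the 6 at 7.77 or less in every panel, and all 3 HFD mCherry libraries are among the latter.

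Wnt7b and Wnt10a, ligands typical of epithelium, followed another order of libraries. Wnt7b measured 15.8, 22.7 and 40.8 CPM in SD mCherry and 16.9, 2.28 and 0.956 CPM in HFD mCherry. In HFD Tert it measured 37.5, 18.5 and 0.118 CPM and in HFD TertCi 24.2, 2.51 and 28.9 CPM. HFD mCherry 17 and 20, HFD Tert 27 and HFD TertCi 31 were the 4 lowest for Wnt7b, and for Wnt10a they were the only libraries at 0.241 CPM or less. They were also the 4 lowest in the epididymis and epithelium list, at 2.83, 0.74, -1.85 and 1.30 in mean log2 CPM, with SD mCherry 2 next at 2.90. The same 4 were lowest in Epcam and Cdh1 of that list, but SD mCherry 2 was highest in both (543 and 381 CPM). Crisp1 of the list was at 641 CPM in HFD mCherry 17 and at 0.242 CPM in SD mCherry 2. The part of those markers in the result was not tested. Wnt10b, the ligand that holds back adipocyte formation, measured 3.72, 4.02 and 2.09 CPM in SD mCherry and 3.09, 7.10 and 6.45 CPM in HFD mCherry. It was between 3.73 and 10.6 CPM in the 6 other libraries, and all 4 groups overlapped. These 3 ligands were picked out after their values were seen.

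The wider pathway was read from a list of 69 other Wnt genes, of which 68 were in the files and 67 were tested. edgeR called none of them in any comparison. On the high-fat diet 7 were higher and 12 lower at an unadjusted p under 0.05, or 28.4% of the 67 against 24.1% of all genes, with a median log2 fold change of -0.04. In HFD Tert 5 were higher and 7 lower (17.9%, against 16.4% of all genes), and in HFD TertCi 4 were higher and 4 lower (11.9%, against 14.7%). DESeq2 called 11 for diet, 2 for HFD Tert and 1 for HFD TertCi, where it called 12.4%, 5.08% and 4.09% of all genes. Without HFD mCherry replicate 15 edgeR called 10 for diet and 1 for HFD TertCi, against 12.2% and 1.16% of all genes. For diet it called 3 without HFD Tert replicate 27 and 1 without SD mCherry replicate 3, against 4% and 0.281% of all genes. Libraries did not overlap for 15 of 67 genes in the diet comparison (22.4%), 13 in HFD Tert (19.4%), 11 in HFD TertCi (16.4%) and 5 between the last 2 (7.46%). Over all genes these shares were 25.5%, 21.1%, 21.5% and 5.13%.

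Among the target genes on that list, Wisp1, a secreted protein induced by Wnt1, measured 9.11, 6.45 and 6.95 CPM in SD mCherry and 19.9, 43.2 and 59.1 CPM in HFD mCherry. Within HFD mCherry, though not within SD mCherry, Wisp1 showed the same order as Fzd1, with replicate 15 lowest. Its diet log2 fold change was 2.44 ± 0.42 (edgeR adjusted p = 0.0652). In HFD Tert it was lower than in HFD mCherry with no overlap (log2 fold change -1.44 ± 0.40, edgeR adjusted p = 0.195). Cd44, an adhesion receptor of many cell types, had group means of 125 CPM in SD mCherry and 893 CPM in HFD mCherry (edgeR adjusted p = 0.0659). Notum, which removes the lipid from Wnt proteins, had means of 21.4 and 3.04 CPM (log2 fold change -2.81 ± 1.14, edgeR adjusted p = 0.177). None of these groups overlapped between diets.

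In the nucleus and cytoplasm, Tcf7l2, a TCF factor, had a mean of 27.8 CPM in HFD mCherry, 54.6 CPM in HFD Tert and 46.1 CPM in HFD TertCi. Neither group overlapped HFD mCherry (edgeR adjusted p = 0.217 and 0.311). Tnks, a tankyrase that marks Axin proteins for degradation, had means of 38.0 CPM in HFD mCherry, 15.6 CPM in HFD Tert and 17.3 CPM in HFD TertCi, with no overlap (edgeR adjusted p = 0.282 and 0.363). Kremen1, a co-receptor of Dkk proteins, had means of 93.7 CPM in HFD mCherry and 44.3 CPM in HFD TertCi, again with no overlap (edgeR adjusted p = 0.237). Ctnnb1, which encodes beta-catenin, was between 592 and 1017 CPM in all 12 libraries.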

How the data were processed

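Each library came as a file of unnormalised counts deposited by the authors, which pairs 24422 gene symbols with whole numbers, per the file headers. The submitters' processing notes name the mm10 build, Subread, SAMtools and featureCounts 1.6.4. Their roles, settings, annotation and use of strand are not given in the sources used here. Total counts of 16430330 to 19486965 set the precision of low genes, and the 3-count limit covers counting error only. The series' design text gives the high-fat control as p21 heterozygous, where the sample labels give p21+/mcherry, and the labels were followed.

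Genes were kept by filterByExpr (16713 genes), scaled by TMM (factors 0.854 to 1.15) and fitted in 1 quasi-likelihood model of 4 groups by edgeR 4.0.16 in R 4.3.3, with robust dispersion (common biological coefficient of variation 0.536) and no covariate. Tests were 2-sided with Benjamini-Hochberg adjustment over all 16713 genes, called at an adjusted p under 0.05, and the SE was taken from the log2 fold change and its F statistic. Lengths, overlaps and coordinates came from GENCODE M21 (GRCm38). A marker level is the mean log2 CPM of a list's tested genes (prior count 2). Named members were the one with the highest level of each role and those with a mean of at least 1 CPM whose libraries did not overlap in a comparison, and others are said to be picked after their values were seen. Members and lists were chosen with earlier results of these data known. Alternatives used DESeq2 1.42.0, limma-voom (limma 3.58.1), other scalings and filters, fits of 6 libraries, each library left out and the epithelium level as covariate. Covariates of Crisp1 status and of the smooth muscle level, alone and with the epithelium level, were chosen after seeing the data. The procedure was tested on simulated data.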

Additional observations from a re-analysis of the deposited data

How the results depend on the processing

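No member was called by edgeR as reported. For the diet comparison DESeq2 called 6 members, the epithelium covariate 5, the Crisp1 status covariate 5 and the epithelium and smooth muscle covariates 9, and leaving out 1 library gave 0 to 8 (8 without HFD mCherry replicate 15, 2 without HFD Tert replicate 27). The same 4 fits called 12.4%, 7.77%, 9.02% and 12.9% of all genes. For HFD Tert these were 3 by DESeq2, 4 with the epithelium covariate, 2 with both covariates and 0 to 1 with a library left out, with 5.08%, 5.17% and 2.73% of all genes in the first 3. For HFD TertCi they were 2, 3, 2 and 0 to 1 (4.09%, 2.47% and 2.76%), and for the test over 4 groups 4, 3, 2 and 0 to 2 (13.8%, 6.92% and 4.93%), with 2 under Crisp1 status (1.68%). Among the other pathway genes, diet calls were 11 by DESeq2, 6 with the epithelium covariate, 7 with Crisp1 status, 12 with both covariates and 0 to 10 with a library left out. HFD Tert gave 2, 6 and 3 under DESeq2, the epithelium covariate and both covariates, and HFD TertCi gave 1 by DESeq2, 3 with both covariates and 0 to 1 with a library left out. Every other alternative gave 0 for these counts, and HFD Tert against HFD TertCi gave 0 members under all of them. The cause was not tested.

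Of 874 alternative values for 38 log2 fold changes of named members, 828 kept their direction and their side of the threshold, 39 passed it in the same direction and 7 reversed. The reversals were Fzd9 in HFD Tert with both covariates (-0.20), Wnt9a in HFD TertCi with the smooth muscle covariate (-0.068) and with both (-0.015), Fzd1 in HFD Tert against HFD TertCi with both (-0.13), Axin2 in HFD Tert with both (1.02), and Axin2 in HFD TertCi with both (0.55) and without HFD mCherry replicate 15 (0.30, from -1.46 to 0.30 over the libraries left out). Scaling by library size only moved the median diet log2 fold change of all genes from -0.08 to -0.27 and that of the members from -0.75 to -0.93, so that members are best read against the median of all genes. No paired analysis was possible because replicate numbers in the labels never recur between groups. Fzd9, Lgr6 and Wnt9b rest on few counts.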
